A study of Homo sapiens with 6 samples.

Results

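The BRA sites described here were called in BMP4-treated cells with 2 antibodies. In activin-treated cells they were not called with the R&D Systems antibody, 1 of the 2. BRA (brachyury, the product of the gene T) is a T-box transcription factor. Human embryonic stem cells of the H9 line had been differentiated for 36 h in FLyB medium (FGF2 at 20 ng/ml, LY294002 at 10 µM and BMP4 at 10 ng/ml) or in FLyA medium, which had the same FGF2 and LY294002 but activin A at 100 ng/ml in place of BMP4. LY294002 inhibits PI3 kinase, and both media contain it, so no list describes cells without it. The study uses FLyB-treated cells as mesoderm progenitors and FLyA-treated cells as endoderm progenitors, and its labels name an R&D Systems and a Santa Cruz antibody against BRA. There was 1 library for each medium and antibody. The study treats the antibodies as replicate experiments, but the lists carry no values to test across them, so no p-value is given. No RNA was measured in these files, so the labelled cell types could not be checked against their markers.

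The sites were selected on measured values, from the R&D Systems FLyB peaks. A peak was taken when no R&D Systems FLyA peak overlapped it by 1 bp or more and at least 1 Santa Cruz FLyB peak did. FLyB-only and common refer below to the R&D Systems lists, so a FLyB-only site may still have a Santa Cruz FLyA peak. This gave 1130 of 23687 R&D Systems FLyB peaks, which is 4.77% of the list. Of the whole list, 63.9% overlapped no R&D Systems FLyA peak and 10.0% overlapped a Santa Cruz FLyB peak. These shares follow from the rule and nothing is read from them. Of the other R&D Systems FLyB peaks, 13999 were FLyB-only with the R&D Systems antibody alone, 1249 were common to both media and also had a Santa Cruz FLyB peak, and 7309 were common without one. The lists held 25864 R&D Systems FLyA peaks, 3007 Santa Cruz FLyB peaks and 2436 Santa Cruz FLyA peaks. A Santa Cruz list was therefore much the shorter of each medium's pair. The study describes the Santa Cruz libraries as noisier and shallower in uniquely placed reads, so a site that these lists lack may have gone uncalled.

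As background, T-box factors bind DNA through a conserved T-box domain. BRA marks the primitive streak of the gastrulating embryo and is needed to form posterior mesoderm. BMP4 signals through SMAD1 and its relatives, activin A through SMAD2 and SMAD3, and high BMP signalling is associated with the posterior streak. ChIP-seq enriches DNA fragments bound by a protein, and a peak caller lists the places where they pile up. A site absent from a list was not called, which does not show that it was unbound. Every deposited peak is 400 bp wide and carries no height or score, so strong and weak sites cannot be told apart. Positions are given on the hg19 build.

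The Santa Cruz FLyA list is the only list that the selection did not use. It overlapped 13 of the 1130 FLyB-only sites, or 1.15% (exact 95% interval 0.614 to 1.96). It overlapped 224 of the 1249 common sites that both antibodies found in FLyB, or 17.9% (15.8 to 20.2). The FLyB-only sites were lower by 16.8 percentage points, and the Newcombe interval of the difference, FLyB-only minus common, ran from -19.1 to -14.6. By the rule the 2 sets differ in R&D Systems FLyA peaks, which come from the same medium. The difference thus describes how the antibodies go together in FLyA and is no independent support for the selection. Over the whole R&D Systems FLyB list, which includes the common peaks, the share with a Santa Cruz FLyA peak was 2.60%. The second antibody thus also called few of these sites in FLyA, although it left most of the common sites uncalled there as well. These intervals cover counting error only and treat neighbouring peaks as independent. Libraries of 1 medium may share cells and an input control, so agreement between antibodies and a shared culture cannot be told apart.

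Among the FLyB-only peaks seen with the R&D Systems antibody alone, 66 of 13999 overlapped a Santa Cruz FLyA peak, or 0.471% (0.365 to 0.599). The sites seen with both antibodies were higher than these by 0.679 percentage points (0.185 to 1.49). Without 42 to 43 Mb of chromosome 10 the difference was 0.335 points, with an interval from -0.0639 to 1.06. Without peaks beside the long peak-free stretches described below it was -0.258 points (-0.44 to 0.229). Both exclusions were chosen after seeing the data and take out sites that carry the share. The fall and the turn thus follow at least in part from the choice and do not settle the direction. Common peaks without a Santa Cruz FLyB peak stood at 4.28% (3.83 to 4.77). The opposite selection, FLyA-only peaks seen with both antibodies, held 244 regions, of which 4 overlapped a Santa Cruz FLyB peak, or 1.64% (0.448 to 4.14). Over all R&D Systems FLyA peaks, 5.01% overlapped a Santa Cruz FLyB peak. That list includes the common peaks, which this selection leaves out, so its higher share follows at least in part from the rule. The share among FLyA-only peaks seen with the R&D Systems antibody alone was not computed, so nothing is read from this comparison. Within 10 kb, a Santa Cruz FLyA peak lay near 50 of the 1130 sites (4.42%), near 21.7% of the common sites with both antibodies, near 7.63% of the common peaks without a Santa Cruz FLyB peak and near 3.34% of the FLyB-only peaks with the R&D Systems antibody alone. Over the whole R&D Systems FLyB list the share was 5.68%.

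**Figure D1:**
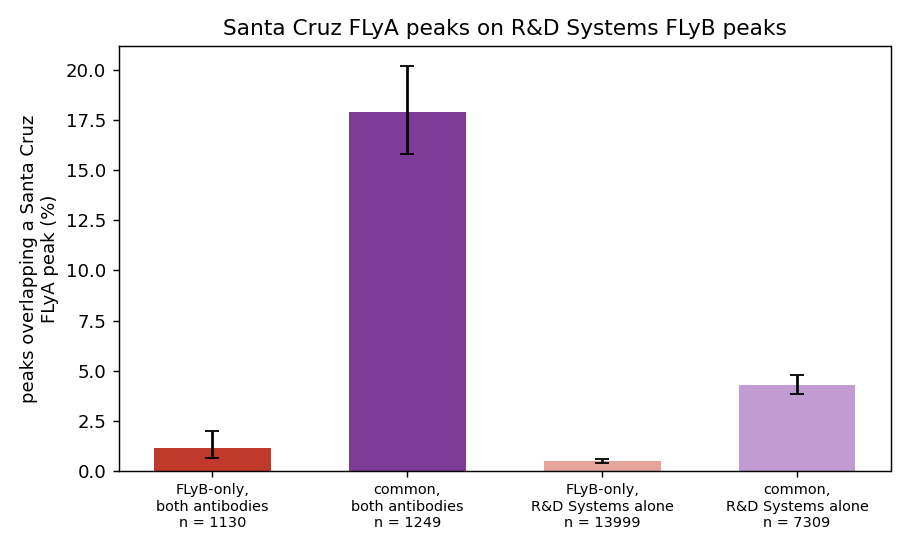
Bars show the percentage of R&D Systems FLyB peaks that overlap a Santa Cruz FLyA peak, for 4 sets of peaks with n under each, and error bars are exact 95% intervals. The FLyB-only sites seen with both antibodies stand at 1.15% and the common sites seen with both antibodies at 17.9%.

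The 13 sites with a Santa Cruz FLyA peak did not lie evenly over the genome. Of them, 4 lay on chromosome 10, at 42364564-42364963, 42395962-42396361, 42401649-42402048 and 42529392-42529791. Chromosome 11 held 2, at 51582790-51583189 and 120725007-120725406. Chromosome 8 held 2, at 43094596-43094995 and 43825664-43826063, and chromosome 9 held 2, at 38226589-38226988 and 66971009-66971408. The rest were at 133028235-133028634 of chromosome 2, 26188853-26189252 of chromosome 20 and 13137640-13138039 of chromosome Y. Their overlap with the Santa Cruz FLyA peak was 335 to 400 bp of 400, so none was a grazing contact.

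Many of these positions adjoin long stretches without a peak, which on hg19 include the unsequenced centromeres. The longest stretch without a peak of any list was therefore found on each chromosome, a measure chosen after these positions were seen. Of the 13 sites, 11 (84.6%) lay within 1 Mb of the edge of such a stretch, against 17 of the 1117 others (1.52%). Some of the 11 are themselves the peak at the edge. Of the common sites seen with both antibodies that had a Santa Cruz FLyA peak, 42 of 224 (18.8%) lay as close, against 17 of 1025 (1.66%) of those without. Away from these edges, 2 of 1102 FLyB-only sites (0.181%, 0.022 to 0.654) and 182 of 1190 common sites (15.3%, 13.3 to 17.5) overlapped a Santa Cruz FLyA peak. Of the FLyB-only peaks seen with the R&D Systems antibody alone, 61 of 13869 did (0.440%, 0.337 to 0.565). With 10 Mb in place of 1 Mb, the counts were 2 of 952 and 158 of 1042 for the sites seen with both antibodies. As the measure was prompted by these 13 positions, the lower share among FLyB-only sites away from the edges follows from the choice. The part of read placement in repeats was not tested.

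Within FLyB, both antibodies placed the sites at nearly the same base pairs. The midpoints of the R&D Systems peak and the nearest Santa Cruz FLyB peak were a median of 32 bp apart among the FLyB-only sites and 30 bp apart among the common sites seen with both antibodies. They were within 50 bp at 67.7% and 70.8% of sites. The rule requires the overlap itself, which limits the offset to under 400 bp, so the offsets are a description. At 1016 of 1130 sites the overlap was 300 bp or more, and at 42 it was under 200 bp. The 1130 sites rest on 1127 distinct Santa Cruz FLyB peaks, and 4 of them overlap another R&D Systems FLyB peak.

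The edges of the rule are narrow. The sites closest to exclusion had a gap to the nearest R&D Systems FLyA peak of 4 bp (chromosome 17, 8028667-8029066), 17 bp (chromosome 18, 1929853-1930252) and 22 bp (chromosome 2, 46733037-46733436). In all, 13 sites had a gap under 100 bp. Just outside, common peaks with a Santa Cruz FLyB peak overlapped a FLyA peak by as little as 5 bp (chromosome X, 46186640-46187039) and 12 bp (chromosome 10, 103403242-103403641). On the side of the second antibody, the smallest overlaps inside were 1, 11 and 15 bp. The nearest misses outside were gaps of 2, 3 and 4 bp. The site on chromosome 18 at 1929853-1930252 is at the limit on both counts, with a FLyA gap of 17 bp and a Santa Cruz FLyB overlap of 1 bp.

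Few sites were nonetheless at that limit for R&D Systems FLyA peaks. The distance between midpoints had a median of 25390 bp, with 8371 bp and 66710 bp at the quartiles, and ran from 404 to 725281 bp. FLyB-only peaks seen with the R&D Systems antibody alone had a median of 23465 bp. Within 1 kb between midpoints, 5.49% of the sites had a FLyA peak, a share that reached 28.7% at 10 kb, 66.7% at 50 kb and 85.0% at 100 kb. For the FLyB-only peaks of the R&D Systems antibody alone the shares were 5.87%, 31.3%, 70.1% and 86.3%. Both sets were selected against FLyA overlap, so these values are given without a test. The farthest sites were at 13137640-13138039 of chromosome Y, 725281 bp away, and 32245513-32245912 of chromosome 4, 665911 bp away. The chromosome Y site is not free of FLyA calls, since a Santa Cruz FLyA peak overlaps it by 398 bp. It is also the first peak after the longest peak-free stretch of that chromosome, and misplaced reads there were not tested.

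**Figure D2:**
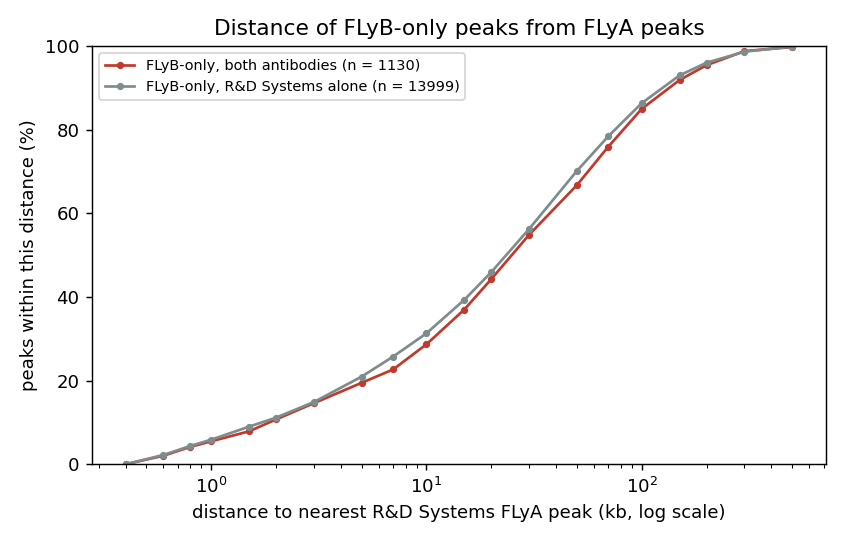
Each curve gives the percentage of peaks (vertical axis) with an R&D Systems FLyA peak within the distance on the horizontal axis, in kb on a log scale. At 10 kb the FLyB-only sites with both antibodies reach 28.7% and those with the R&D Systems antibody alone 31.3%.

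Other FLyB sites were closer than FLyA sites, which the rule keeps from overlapping. The nearest other R&D Systems FLyB peak was a median of 11808 bp away from the sites seen with both antibodies. That median was 8376 bp for common sites with both antibodies, 17091 bp for FLyB-only peaks with the R&D Systems antibody alone and 19736 bp for common peaks without a Santa Cruz FLyB peak. Within 10 kb, another R&D Systems FLyB peak lay near 532 of 1130 sites, or 47.1%. The share was 52.6% for common sites with both antibodies and 40.4% for FLyB-only peaks of the R&D Systems antibody alone. For common peaks without a Santa Cruz FLyB peak it was 38.0%. In both FLyB-only and common peaks, those that the second antibody also found had more FLyB neighbours. Peak height is not in the lists, and its part was not tested.

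Within 50 kb on either side, a site had a mean of 2.38 other R&D Systems FLyB peaks, of which 1.58 were FLyB-only and 0.792 were common. It had a mean of 0.788 FLyA-only peaks. Of the 2684 FLyB neighbours counted, with repeats, 1789 (66.7%) were FLyB-only, against 63.9% of the whole list. The share was 65.3% around FLyB-only peaks with the R&D Systems antibody alone. Around common sites with both antibodies it was 61.0%, and around common peaks without a Santa Cruz FLyB peak 60.3%. The share near the sites was thus close to that of the list. No FLyB neighbour was within 50 kb of 247 sites (21.9%), while 171 sites (15.1%) had 5 or more. For common sites with both antibodies these shares were 19.1% and 20.4%. They were 27.6% and 13.2% for FLyB-only peaks with the R&D Systems antibody alone. Common peaks without a Santa Cruz FLyB peak had 29.2% and 12.5%. No R&D Systems FLyA peak of any kind was within 50 kb of 376 sites (33.3%), against 29.9% of FLyB-only peaks with the R&D Systems antibody alone.

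**Figure D3:**
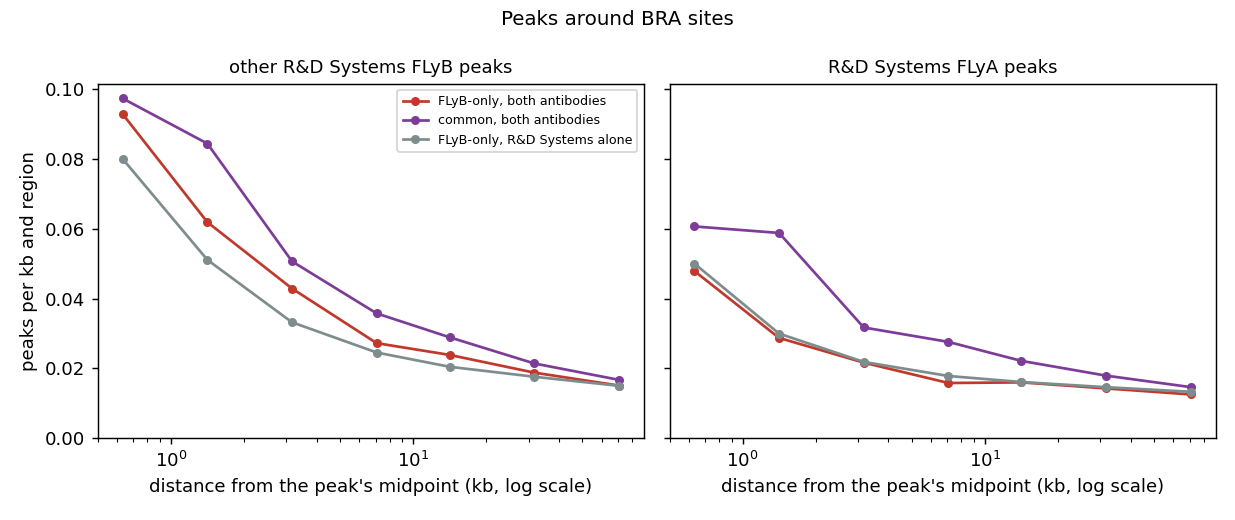
Points give R&D Systems peaks per kb and region in rings around each set of sites, for other FLyB peaks (left) and FLyA peaks (right), against distance in kb on a log scale. FLyB neighbours of the FLyB-only sites seen with both antibodies fall from 0.0929 per kb at 400 to 1000 bp to 0.0151 per kb at 50 to 100 kb. FLyA neighbours of the same sites fall over these rings from 0.0479 to 0.0126 per kb. The FLyB-only curves nearly coincide in the right panel.

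Sites of this kind were mostly apart from each other. The median distance to the nearest other one was 674220 bp, and 53 of 1130 (4.69%, 3.53 to 6.09) had another within 10 kb. For common sites with both antibodies the share with another of their own kind within 10 kb was 8.89%. Chaining sites within 50 kb gave 1055 groups, of which 987 were single sites, 61 were pairs and 7 were triples. In 41 pairs no R&D Systems FLyA peak lay between the outer ends, and in 38 pairs the only R&D Systems FLyB peaks were the members themselves. Pair spans ran from 744 to 49399 bp. Spans of other sets were not counted, so nothing is read from these counts.

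The triples differed in what surrounded them. The tightest spanned 4831 bp on chromosome 20 (57786392-57791222), with 4 R&D Systems FLyB peaks, 3 Santa Cruz FLyB peaks and no FLyA peak of either antibody. The nearest R&D Systems FLyA peak was 53012 bp from its closest member. On chromosome 7, the triple at 151494199-151522837 also held no FLyA peak, although an R&D Systems FLyA peak lay 2576 bp from its last member. A second triple on chromosome 7, at 127366952-127410227, held 5 R&D Systems FLyB peaks and 1 FLyA peak, with another FLyA peak 449 bp from its first member. The triple at 48600969-48632909 of chromosome 20 held 7 R&D Systems FLyB peaks, 1 of them common, and 1 R&D Systems FLyA peak.

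The other triples stood in denser or mixed surroundings. On chromosome 6, at 166587588-166637572, 8 R&D Systems FLyB peaks lay with 1 FLyA peak, and the last 2 members there shared 1 Santa Cruz FLyB peak, with overlaps of 25 and 177 bp. On chromosome 16, at 85569959-85639036, 12 R&D Systems FLyB peaks were interspersed with 7 FLyA peaks, 6 of the former being common. The triple at 42364564-42402048 of chromosome 10 was the only one with Santa Cruz FLyA peaks, of which it held 10, and it lies beside the longest stretch without peaks on its chromosome. All its 3 members are among the 13 sites with a Santa Cruz FLyA peak.

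The tightest pairs differed in whether their members shared a Santa Cruz FLyB peak. At 208164135-208164878 of chromosome 1 and at 133866758-133867544 of chromosome 9, 2 overlapping R&D Systems FLyB peaks met 1 Santa Cruz FLyB peak, which covered 355 and 396 bp of one member and 11 and 17 bp of the other. The starts of the members were 344 and 387 bp apart. The lists do not show whether such a pair is 1 site or 2. At 71064676-71065638 of chromosome 17, each of 2 members had a Santa Cruz FLyB peak of its own, with overlaps of 380 and 397 bp. After merging overlapping members, 1128 regions remained of 1130.

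**Figure D4:**
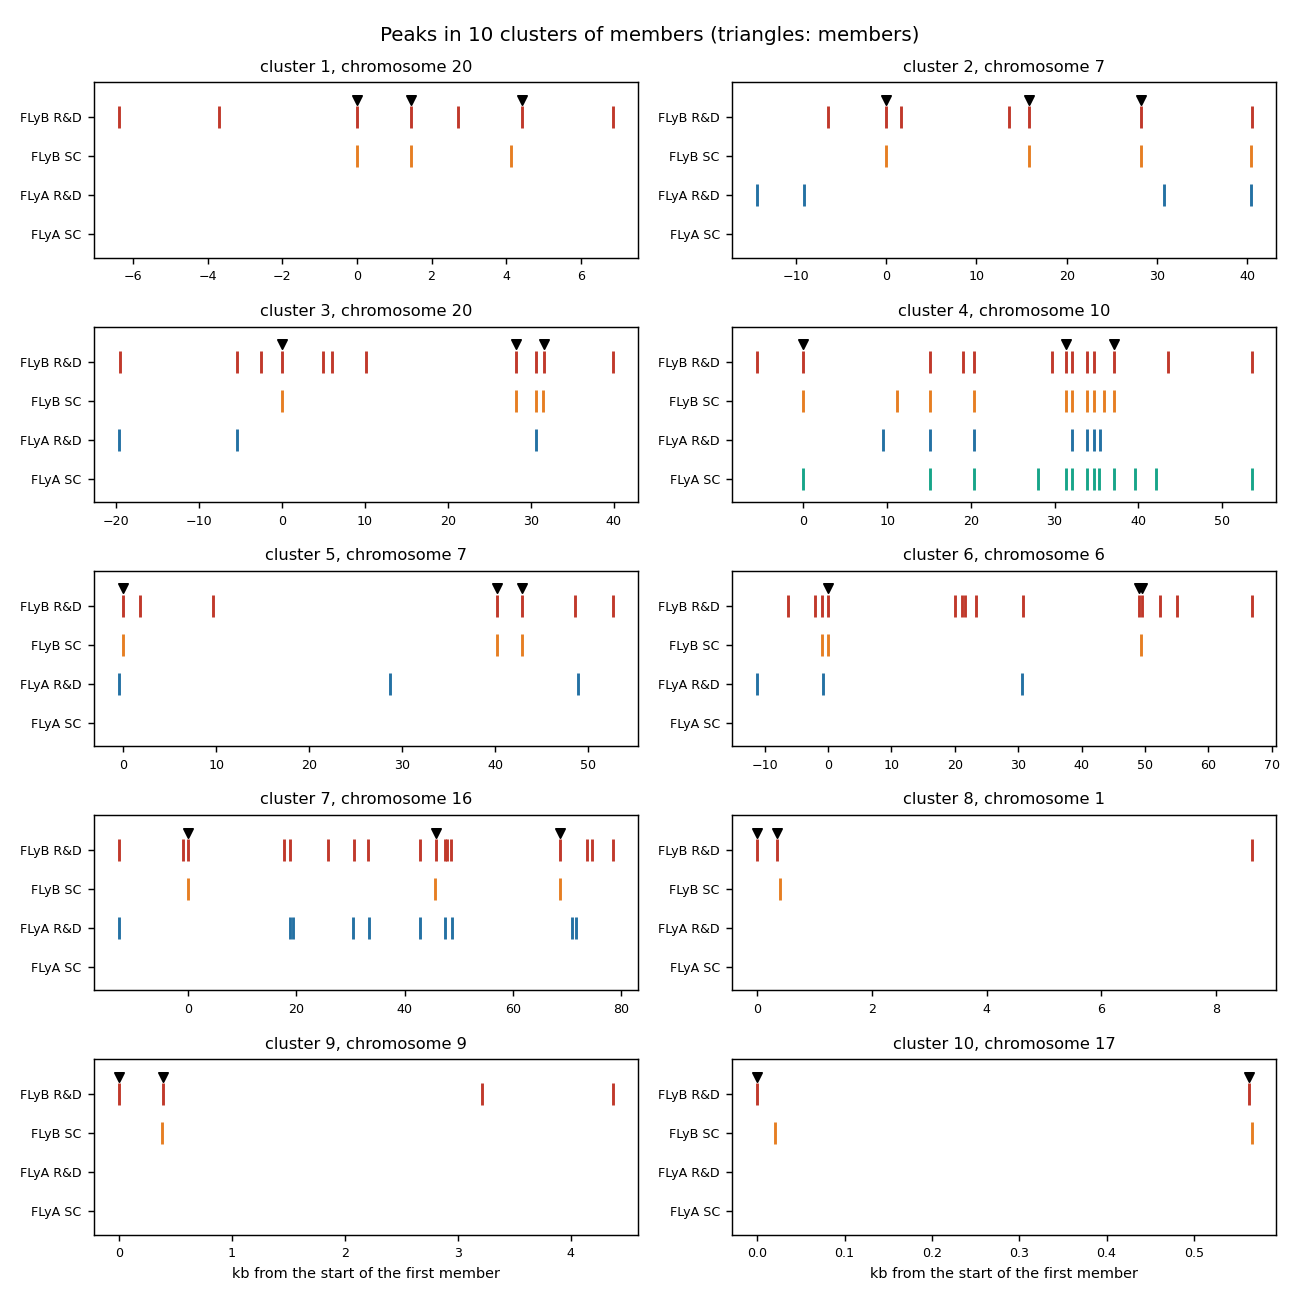
Ticks mark the start of each peak of the 4 lists in and around the 7 triples (clusters 1 to 7) and the 3 tightest pairs (clusters 8 to 10), in kb from the first member, with a different scale in each panel and SC for Santa Cruz. Triangles mark members, and cluster 4 on chromosome 10 is the only panel with Santa Cruz FLyA peaks.

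The sites were spread over all chromosomes in the lists. Chromosome 1 held 105, the highest number, and chromosome Y held 1 of its 5 R&D Systems FLyB peaks. Leaving out Y, the share of a chromosome's R&D Systems FLyB peaks that met the rule ran from 2.06% on chromosome 19 (11 of 535, exact interval 1.03 to 3.65) to 7.06% on chromosome 13 (47 of 666, 5.23 to 9.27). Chromosome 20 stood at 6.73% (44 of 654, 4.93 to 8.93). Over the whole list it was 4.77%. Among the 2379 R&D Systems FLyB peaks that a Santa Cruz FLyB peak overlapped, 47.5% were FLyB-only, and the ranking of chromosomes changed in part. There chromosome 19 stood at 42.3% (23.4 to 63.1), chromosome 5 was lowest at 37.1% (28.9 to 46.0), chromosome 20 was highest at 62.0% (49.7 to 73.2) and chromosome 13 came next at 60.3% (48.5 to 71.2), leaving out Y. The rule used the same peaks, so these shares and their order are a description, and their intervals cover counting error only and test nothing.

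**Figure D5:**
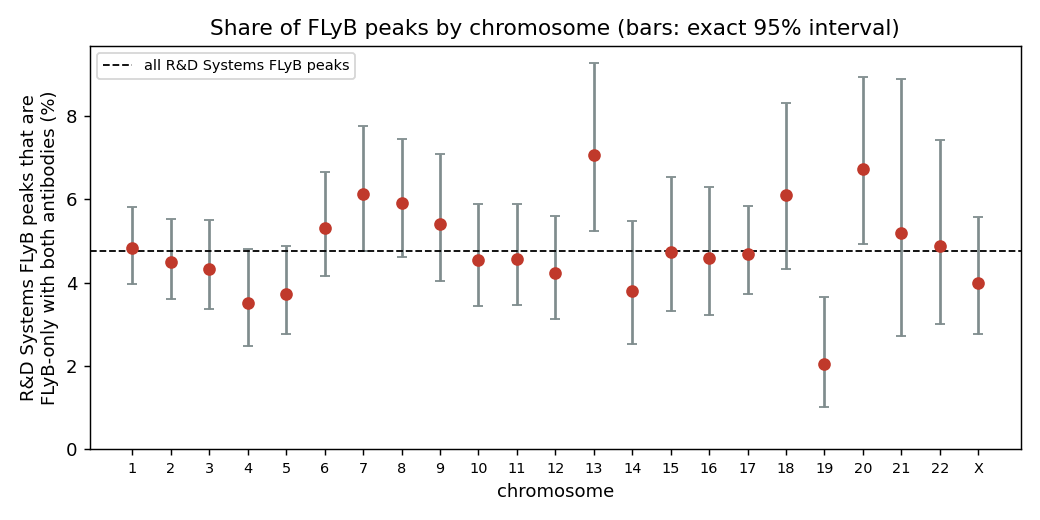
Points give, for each chromosome except Y, the percentage of R&D Systems FLyB peaks that are FLyB-only with both antibodies, with exact 95% intervals and the whole list's 4.77% as a dashed line. Chromosome 19 is lowest at 2.06% and chromosome 13 highest at 7.06%.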

How the data were processed

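BRA ChIP-seq was carried out on an Illumina Genome Analyzer II, and the submitters' processing notes name Bowtie 0.12.7 and hg19. The authors called peaks with MACS. The deposited lists hold chromosome, start and end only, with no score, count or depth. The Santa Cruz lists carry a header naming MACS with 1e-12, while for the R&D Systems antibody the cut-off is not given in the sources used here. The 2 input libraries were not analysed here. Starts were written 1-based. Overlaps and distances between midpoints were computed with Python 3.11.15, NumPy 2.4.6 and pandas 2.3.3, the number of sites was checked with bedtools 2.31.1, and the scripts were tested on simulated data. Shares carry exact Clopper-Pearson 95% intervals (SciPy 1.17.1), and differences carry Newcombe intervals. Clusters named were the 10 with the most members, ties by the shorter span. The sites, windows and comparisons were chosen with earlier results of these data known. No hg19 genome or annotation was used, so nearby genes, motifs and sequences are not reported.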

Additional observations from a re-analysis of the deposited data

How the results depend on the processing

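Over 30 alternatives, 24 values stayed within their counting interval or within 1.5 times the count. The number of sites ran from 1046, with a gap of at least 1000 bp between the edges of the site and any R&D Systems FLyA peak, to 1128, with at least 200 bp of overlap. The share with a Santa Cruz FLyA peak ran from 0.800%, without 42 to 43 Mb of chromosome 10, to 1.24%, apart from one alternative. Without peaks within 1 Mb of the longest peak-free stretches it was 0.181% (2 of 1102), since 11 of the 13 sites behind it lie there. Its difference from common sites, FLyB-only minus common, ran from -16.9 to -15.1 percentage points. Its difference from FLyB-only peaks with the R&D Systems antibody alone turned from 0.679 to -0.258 points without the peaks beside those stretches, and otherwise ran from 0.335 to 0.789. The alternatives without that stretch of chromosome 10 or the edges of the peak-free stretches, the one without chromosome 17 for the Santa Cruz FLyA share, and all those for the differences were chosen after seeing the data. The shares within a window moved with the window by construction. Another site of the same kind lay within 5 kb of 3.27% and within 50 kb of 12.7% of sites, and an R&D Systems FLyA peak within 5 kb of 19.5% and within 50 kb of 66.7%. Alternatives for T-box half-sites, genes near sites and promoter, exon and intron shares were not run, since they need an hg19 genome or annotation. No paired analysis was possible because the lists hold positions with no value per peak, so no result comes from a test that could take the antibody as a block. Read counts are not in the lists, and the study describes the Santa Cruz libraries as the shallower ones, so a missing peak limits every absence above.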
